A study of Rattus norvegicus with 30 samples.

Results

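Albumin, serpins and carrier proteins of blood plasma were followed in cultured rat liver cells exposed to methapyrilene, an antihistamine withdrawn after it caused liver tumours in rats. The 10 genes were *Alb*, *Ttr*, *Rbp4*, *Gc*, *Hpx*, *Ahsg*, *Serpina1*, *Serpina3c*, *Serpina3n* and *Serpina6*. They were chosen by name, and every probe set annotated to one of them alone was taken, which gave 12 of the 20826 probe sets with a single gene. *Alb* and *Gc* had 2 probe sets each and the others 1. Each gene was read from its brightest probe set over the 30 arrays, and all 10 were among the 10222 genes tested.

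Hepatocytes make most plasma proteins and secrete them through the endoplasmic reticulum and Golgi. Albumin carries fatty acids, drugs and hormones. Transthyretin, retinol-binding protein, vitamin D-binding protein and hemopexin each carry a particular ligand. Serpins are a protein family named for inhibitors that trap proteases, although some, such as the glucocorticoid carrier encoded by *Serpina6*, carry hormones. Production of these proteins is a usual measure of how far cultured hepatocytes keep their liver functions.

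Frozen hepatocytes of male Sprague Dawley rats were thawed, cultured and, on day 3, given methapyrilene hydrochloride at 3 uM or 100 uM, or DMSO, the vehicle. They were harvested 24 or 48 h later. Each of the 6 combinations of dose and time had 5 wells, so n = 5 throughout and each well gave 1 array. The vehicle is labelled as 1% DMSO, but according to the treatment protocol that is the DMSO content of the concentrated stocks, which leaves the final content uncertain. DMSO was the vehicle of all groups, so no untreated cells were compared. The wells are described as independent cultures of purchased cells, and no animals are named, so p-values measure the spread between wells. The values are MAS5 signals, in arbitrary units on a linear scale, and were tested as log2 values with limma. A gene is said to rise or fall where the Benjamini-Hochberg adjusted p over all 10222 genes was under 0.05.

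Markers bore out the labelled cell type: 11 of 11 measured hepatocyte markers exceeded the array median on all 30 arrays. At 100 uM 7 of the 11 fell at 24 h and 5 at 48 h and none rose, where 15.8% and 14.5% of all genes fell; *Apob*, which encodes the protein of lipoprotein particles, went from 44860 ± 2690 (SD, n = 5) in DMSO to 26170 ± 3760 at 48 h. Of markers of Kupffer cells and leukocytes, 4 of 10 were above the array median on all 30 arrays (*Cd68*, *Aif1*, *Lyz2* and *Cd14*), while *Cd163*, *Ptprc* and *Adgre1* were below the median everywhere. Of the 7 tested, 2 rose at 100 uM and 48 h (*Cd68* from 739 to 2308 and *Cd5l* from 228 to 332) and 2 fell (*Cd14* from 10540 to 5130 and *Lyz2* from 7475 to 6529). Of all genes 18.9% rose and 14.5% fell there. Both *Cd5l* means were below the lowest array median of 362. The summed signal of the 10 markers at 100 uM and 48 h was 14273 to 17560 against 19568 to 22575 in DMSO. The stellate cell markers *Pdgfrb*, *Dcn*, *Lum* and *Lrat*, the endothelial markers *Stab1* and *Pecam1* and the cholangiocyte markers *Krt7*, *Cftr* and *Spp1* were below the median on all arrays. In the same lists *Acta2* and *Col3a1* (stellate), *Kdr* and *Fcgr2b* (endothelial) and *Epcam* (cholangiocyte, group means from 8867 to 12590) were above it on all arrays. The part of these markers in the results was not tested. Array medians ran from 362 to 471. In replicates 1, 2 and 3 of 3 uM at 24 h the beta-actin controls gave a 3'-to-5' signal ratio of 3.93, 5.10 and 5.30, against 2.34 to 3.43 on the other 27 arrays, so values that use that group are also given without them.

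The 10 genes formed 2 kinds. *Alb*, *Ttr*, *Rbp4*, *Gc*, *Hpx*, *Ahsg*, *Serpina1* and *Serpina3n* had mean signals above 30000 and were brighter than at least 99.2% of all probe sets. Their 6 group means spanned only 0.13 (*Ahsg*) to 0.31 (*Serpina3n*) on the log2 scale, or 0.20 to 0.38 without those 3 wells. This holds for the brightest probe sets. Group means of the dimmer *Gc* probe set ran from 11.50 (100 uM at 48 h) to 12.83 (3 uM at 24 h), log2. *Serpina3c* and *Serpina6* spanned 2.26 and 2.77, fell between 24 and 48 h in culture, and were higher at 100 uM than in DMSO at 48 h. The pooled standard deviation within groups was 0.09 (*Serpina3n*) to 0.24 (*Serpina6*), so the spans of *Serpina3c* and *Serpina6* were over 10 times their own spread and those of the bright genes were much closer to theirs. A signal also depends on how well a probe set binds, so no order between genes is drawn from these levels.

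**Figure D1:**
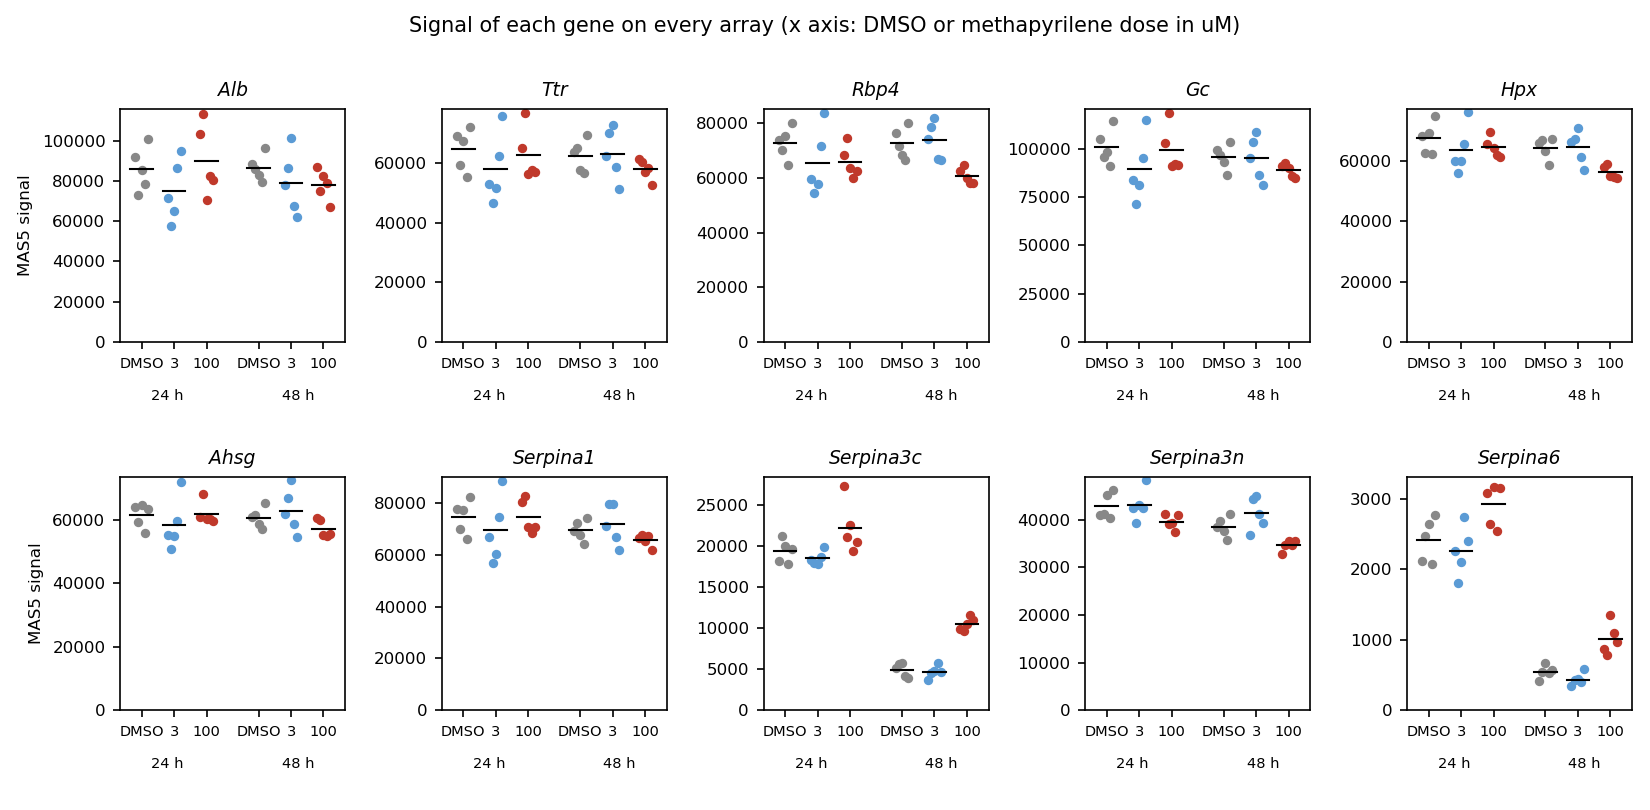
MAS5 signal (linear axis from 0) of the 10 genes on each of the 30 arrays, by treatment (DMSO, 3 or 100 uM methapyrilene) and time; points are wells and lines are group means, n = 5. The panels of *Serpina3c* and *Serpina6* drop between 24 and 48 h and stand higher at 100 uM than in DMSO at 48 h, while the group means of the other 8 differ far less.

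Position was not used to choose the genes, but 4 of the 10 lie in a single serpin cluster on chromosome 6 of the GRCr8 assembly. *Serpina6* lies at 128544828 to 128555064, *Serpina1* at 128631101 to 128653125, *Serpina3c* at 129007578 to 129014988 and *Serpina3n* at 129088392 to 129095950. *Alb* (17891564 to 17907043) and *Gc* (18916255 to 18951670) belong to the albumin gene family and share chromosome 14. *Rbp4* and *Hpx* are on chromosome 1, *Ahsg* on chromosome 11 and *Ttr* on chromosome 18.

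Promoter sequence was found for 8 of the 10 genes in the RefSeq table for GRCr8, and not for *Serpina3c* and *Serpina6*. The windows, 250 bases before to 50 bases after the start site, were searched on both strands for 10 motifs. These were motifs of factors that act on liver genes and the general promoter motifs CCAAT and TATAAA. The 2 albumin family genes each held 1 match to the HNF1-type motif GTTAAT, which 7.45% of 33469 promoter windows hold and which none of the other 6 matched genes had. Counted from the start site of the window, the match begins at -82 in *Alb* and at -194 in *Gc*. The *Alb* start site lies inside the annotated gene. The stretch before each gene is shown 5' to 3' on the strand of the gene, with the match in capitals: chr14:17907044-17907229 (minus strand) for *Alb*, where the match begins 18 bases before the gene, and chr14:18916005-18916254 (plus strand) for *Gc*, where it begins 194 bases before.
Alb: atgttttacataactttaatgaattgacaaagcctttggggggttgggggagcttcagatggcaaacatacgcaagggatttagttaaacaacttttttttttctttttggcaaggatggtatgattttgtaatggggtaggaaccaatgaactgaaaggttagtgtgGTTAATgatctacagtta
Gc: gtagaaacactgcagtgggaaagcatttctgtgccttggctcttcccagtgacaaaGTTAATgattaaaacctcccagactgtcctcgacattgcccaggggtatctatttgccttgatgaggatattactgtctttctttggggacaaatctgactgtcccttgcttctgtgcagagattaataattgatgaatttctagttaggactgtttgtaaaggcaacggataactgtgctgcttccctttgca

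The next 3 sequences precede the genes that were lower at 100 uM and 48 h, and are shown because no single motif of the 10 searched was shared by all 3. Capitals mark TATAAA for *Rbp4* (chr1:245313552-245313801, minus strand; 14.2% of windows), the nuclear receptor motif AGGTCA for *Hpx* (chr1:169352156-169352405, minus strand; 16.2%) and the STAT-type TTCNNNGAA for *Serpina3n* (chr6:129088142-129088391, plus strand; 8.87%). The *Hpx* stretch holds AGGTCA once on each strand, the reverse one reading TGACCT.
Rbp4: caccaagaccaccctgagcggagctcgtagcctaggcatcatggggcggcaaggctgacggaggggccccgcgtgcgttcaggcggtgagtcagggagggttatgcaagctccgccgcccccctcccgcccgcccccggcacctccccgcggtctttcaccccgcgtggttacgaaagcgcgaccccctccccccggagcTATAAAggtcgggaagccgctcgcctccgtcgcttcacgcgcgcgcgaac
Hpx: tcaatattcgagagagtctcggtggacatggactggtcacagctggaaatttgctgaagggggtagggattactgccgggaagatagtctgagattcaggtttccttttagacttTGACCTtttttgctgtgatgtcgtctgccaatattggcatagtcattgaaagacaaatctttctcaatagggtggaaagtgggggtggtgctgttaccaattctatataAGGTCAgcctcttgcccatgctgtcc
Serpina3n: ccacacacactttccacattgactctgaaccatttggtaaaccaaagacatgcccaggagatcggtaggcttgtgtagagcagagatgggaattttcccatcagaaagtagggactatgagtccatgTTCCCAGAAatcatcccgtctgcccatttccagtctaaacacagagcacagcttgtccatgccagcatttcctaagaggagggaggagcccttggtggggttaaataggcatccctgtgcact

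Of the other motifs, the C/EBP-type motif TTGCNNAA was in 4 of the 8 windows (*Alb*, *Rbp4*, *Hpx* and *Ahsg*; 10.6% of all windows) and CCAAT in 3 (*Alb*, *Ttr* and *Hpx*; 37.5%). TTGCGCAA, CAAAGTCCA, TGTTTAC and TTCCNGGAA, which 0.17%, 0.391%, 3.78% and 1.27% of windows hold, were in none. A TTGCGCAA site also matches TTGCNNAA, and TTCCNGGAA also matches TTCNNNGAA. A match is only a match of letters in these windows, and no binding was measured.

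The first comparison asks what time in culture did without drug. From 24 to 48 h in DMSO, *Serpina3c* and *Serpina6* fell about 4-fold while the other 8 genes did not pass the test on their brightest probe sets. The dimmer *Gc* probe set did pass as lower (log2 -0.417, limma adjusted p = 2.01e-05). *Serpina3c* belongs to the rodent group of antichymotrypsin-like protease inhibitors. Its signals in the 5 DMSO wells were 18262, 21210, 19994, 17846 and 19657 at 24 h and 5079, 5653, 5786, 4146 and 3929 at 48 h. The highest well at 48 h was far below the lowest at 24 h. The log2 change was -1.99 ± 0.10 (SE), or 3.98-fold lower (limma adjusted p = 3.78e-16).

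*Serpina6* encodes corticosteroid-binding globulin, the main glucocorticoid carrier of plasma. Its signals were 2115, 2481, 2639, 2074 and 2774 in DMSO at 24 h, and 419, 539, 674, 532 and 571 at 48 h. Again the times did not overlap, and at 48 h the signals were close to the array medians of 362 to 471, so they were near the middle of all probe sets. The log2 change was -2.15 ± 0.14 (SE), or 4.44-fold lower (limma adjusted p = 4.18e-13). These were 2 of 10 genes called lower, where 1.91% of all genes were (4.48% in either direction), and 3.07% were lower with no overlap. The median change of the 10 genes was -0.07 and that of all genes 0.00. In bulk RNA, fewer cells of a type and less RNA per cell cannot be told apart.

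For the bright genes, read from their brightest probe sets, no change over the same day passed the test. *Alb* was 85971 ± 11120 (SD, n = 5) at 24 h and 86647 ± 6374 at 48 h in DMSO, and *Rbp4* was 72864 ± 5822 and 72673 ± 5571. Among them *Serpina3n* moved most, from 42869 ± 2693 to 38594 ± 2155, a log2 change of -0.15 ± 0.06 (SE) that did not pass (limma adjusted p = 0.160). *Serpina1*, which encodes the elastase inhibitor alpha-1-antitrypsin, lies between the 2 falling genes in the cluster and changed by -0.10 ± 0.09 (SE; adjusted p = 0.646). Among 281 other genes with mean signals of at least 30000 the median absolute log2 change with time was 0.045, against 0.078 among 3311 genes between 3000 and 30000. Whether signals this bright still follow the amount of message was not tested.

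**Figure D2:**
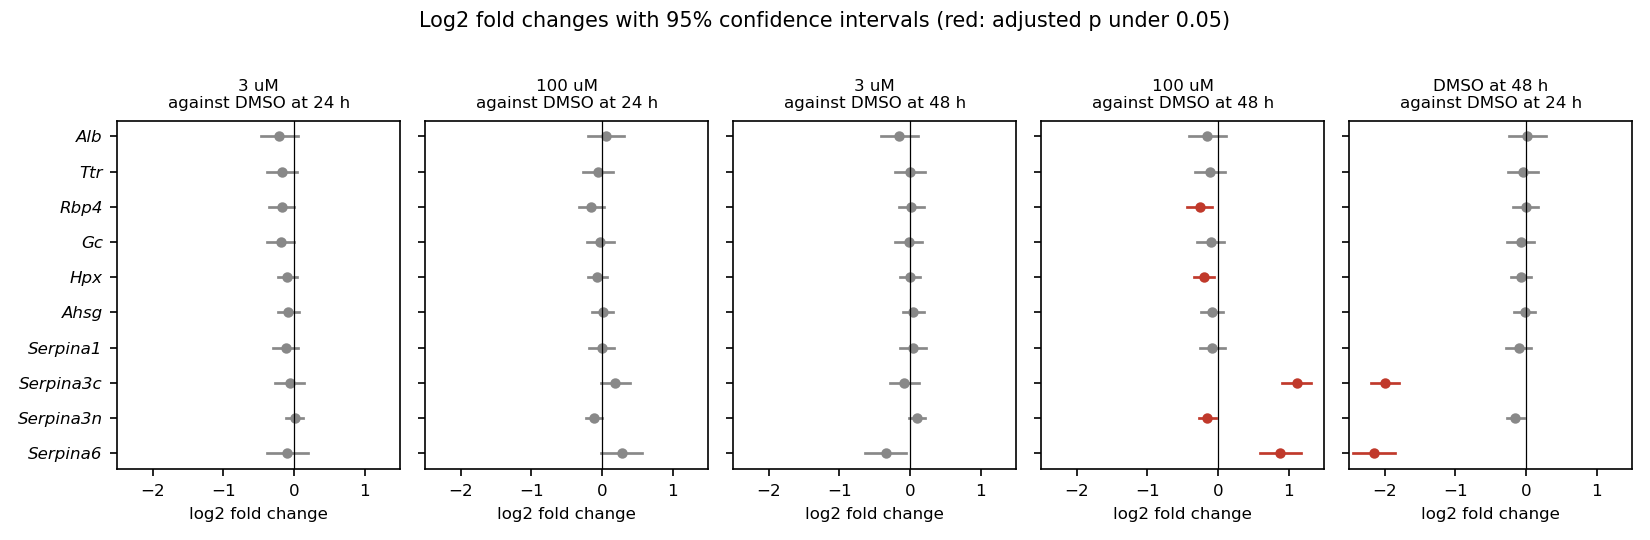
Log2 fold changes of the 10 genes (x axis) with 95% confidence intervals in 5 comparisons, from limma on 5 wells a group; red points have an adjusted p under 0.05. Red points appear only for 100 uM against DMSO at 48 h (5 genes) and for DMSO at 48 h against 24 h (2 genes), and the widest departures from 0 are those of *Serpina3c* and *Serpina6*.

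The second comparison asks what 100 uM methapyrilene did at each time. At 24 h none of the 10 genes passed the test on its brightest probe set, where 35.7% of all genes did, 19.8% higher and 15.8% lower. At an unadjusted p under 0.05 the count was also 0, since the lowest p of the 10 genes was 0.0595. At 48 h, 2 rose and 3 fell, where 33.4% of all genes passed, 18.9% higher and 14.5% lower, so the count of 5 of 10 is not far from the background. The 10 genes had a median log2 change of -0.01 at 24 h and -0.11 at 48 h, and all genes of 0.04 and 0.05.

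*Serpina3c* read 9871, 9707, 10463, 11646 and 10944 at 100 uM and 48 h. All of these were above the 5 DMSO wells of that time and below the 5 DMSO wells of 24 h. The log2 change against DMSO was 1.11 ± 0.10 (SE), or 2.16-fold higher (limma adjusted p = 7.38e-11). At 24 h the wells read 27324, 21151, 22563, 19467 and 20501, which overlapped with DMSO, and the log2 change was 0.19 ± 0.10 (adjusted p = 0.151). The difference between the effects at the 2 times was itself tested and was 0.93 ± 0.14 on the log2 scale (limma adjusted p = 0.000167). Among all genes 1.65% passed that test, 0.616% with a rise. Of the 10 genes, read from their brightest probe sets, only *Serpina3c* passed it.

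*Serpina6* read 867, 787, 1352, 1091 and 965 at 100 uM and 48 h, again above all DMSO wells of that time and below those of 24 h. The log2 change was 0.88 ± 0.14 (SE), or 1.84-fold higher (limma adjusted p = 8.21e-06). At 24 h the wells at 100 uM read 3086, 2650, 3175, 2552 and 3159 and overlapped with DMSO. Its log2 change there was 0.28 ± 0.14 (adjusted p = 0.133). The change of its effect between the times, 0.60 ± 0.20, did not pass (limma adjusted p = 0.173), so a difference in timing from *Serpina3c* is not shown. It did pass with the beta-actin ratio as a covariate (adjusted p = 0.0266).

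The fall with time was smaller at 100 uM for *Serpina3c* by that test, which *Serpina6* did not pass. *Serpina3c* was 3.98-fold lower at 48 than at 24 h in DMSO, 4.03-fold lower at 3 uM (4.2-fold without replicates 1, 2 and 3 at 24 h) and 2.10-fold lower at 100 uM. For *Serpina6* the ratios were 4.44, 5.26 (6.02 without those wells) and 2.93. The order of group means of *Serpina3c* was 100 uM at 24 h (22201 ± 3076), DMSO at 24 h (19394 ± 1360), 3 uM at 24 h (18580 ± 843), 100 uM at 48 h (10526 ± 796), DMSO at 48 h (4919 ± 850) and 3 uM at 48 h (4651 ± 737; all SD, n = 5). *Serpina6* had the same order, from 2924 ± 299 down to 433 ± 89.1. Without those wells the 3 uM means at 24 h were 19355 for *Serpina3c*, at the same place in the order, and 2571 for *Serpina6*, above the 2417 of DMSO. For both genes, groups of 24 h that are next to each other in that order did not differ beyond their spread, nor did 3 uM and DMSO at 48 h.

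Among the bright genes, read from their brightest probe sets, *Rbp4* had the largest change at 100 uM and 48 h. It encodes the plasma carrier of retinol, which circulates bound to the *Ttr* product. Its wells read 76356, 71823, 68387, 66676 and 80123 in DMSO and 62523, 64611, 60072, 58269 and 58264 at 100 uM, without overlap. The log2 change was -0.26 ± 0.09 (SE), or 16.3% lower in the treated wells (limma adjusted p = 0.0208). Without DMSO replicate 1 or replicate 5 the adjusted p was 0.0508 or 0.0674.

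*Serpina3n*, an antichymotrypsin-like inhibitor known as an acute phase protein, read 38508, 39828, 37582, 35697 and 41355 in DMSO and 32885, 34673, 35674, 34750 and 35606 at 100 uM. The highest treated well lay just under the lowest DMSO well. The log2 change was -0.15 ± 0.06 (limma adjusted p = 0.0418). This call was lost in 11 of 46 alternatives, among them quantile normalization (adjusted p = 0.118) and 6 single wells left out, which were DMSO replicates 1, 2 and 5 and treated replicates 1, 2 and 4 (up to 0.124).

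*Hpx* encodes hemopexin, which binds free heme for clearance by the liver. It read 65657, 66892, 63111, 58638 and 67094 in DMSO and 57876, 58862, 54768, 54630 and 54268 at 100 uM. The groups overlapped, since DMSO replicate 4 lay below treated replicate 2. The log2 change was -0.20 ± 0.07 (limma adjusted p = 0.0262), and the call was lost in 8 of 46 alternatives. These were median centring and the loss of DMSO replicate 1, 2 or 5 or treated replicate 3, 4 or 5 (adjusted p up to 0.0638). The loss of treated replicate 3 is counted 2 times among them. By groups that do not overlap, 2 genes were higher and 2 lower at 48 h, where 15.8% and 12.1% of all genes were.

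The remaining 5 bright genes were also below DMSO at 48 h but did not pass the test on their brightest probe sets. *Alb*, the main protein of plasma by mass, read 88322, 85918, 82895, 79647 and 96451 in DMSO and 87001, 75162, 82481, 79084 and 66939 at 100 uM. These groups overlapped, and the log2 change was -0.15 with a 95% interval from -0.41 to 0.11 (limma adjusted p = 0.399). The dimmer *Alb* probe set changed by -0.12 ± 0.12 (SE). *Ttr*, the carrier of thyroxine and of retinol-binding protein, changed by -0.11 (-0.32 to 0.11), *Serpina1* by -0.08 (-0.26 to 0.10) and *Ahsg*, which encodes the mineral-binding glycoprotein fetuin-A, by -0.09 (-0.24 to 0.07). In all 46 alternatives the log2 change of each of these genes and of *Gc* kept its sign at 48 h.

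*Gc*, which encodes the vitamin D-binding protein, gave different answers from its 2 probe sets. The brighter one was 95793 ± 6480 (SD, n = 5) in DMSO and 88874 ± 3354 at 100 uM and 48 h, a log2 change of -0.11 ± 0.09 (SE; limma adjusted p = 0.422). The dimmer one read 5443, 5049, 5323, 5278 and 5010 in DMSO and 2749, 3054, 2648, 2801 and 3263 at 100 uM. These wells were far apart, and the log2 change was -0.85 ± 0.06, or 1.80-fold lower (limma over 13530 probe sets, adjusted p = 3.20e-13; 13.5% of probe sets passed as lower). At 24 h it read 7279, 6751, 6935, 6944 and 6932 in DMSO and 5408, 5629, 5464, 5345 and 4950 at 100 uM, a change of -0.38 ± 0.06 (adjusted p = 5.60e-06; 14.9% lower). It also fell with time in DMSO, by 0.42 on the log2 scale (adjusted p = 2.01e-05; 1.60% lower). The effect of 100 uM on it differed between the times by -0.47 ± 0.08 (adjusted p = 0.00176; 0.769% lower).

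The difference between the 2 *Gc* probe sets was then taken within each array. Dimmer minus brighter was -3.85 in DMSO and -4.21 at 100 uM at 24 h, and -4.20 and -4.94 at 48 h, all log2 means. Each pair was completely apart, with an exact two-sided permutation p of 0.00794, the smallest that 252 splits can give (adjusted over 7 comparisons, 0.0185). Time in DMSO alone, 48 h against 24 h, moved it by -0.343 (exact permutation p = 0.0159, adjusted 0.0278). The shift at 100 uM and 24 h was -0.352. At 3 uM the differences from DMSO were 0.25 at 24 h and -0.08 at 48 h, with exact permutation p = 0.159 and 0.397. From replicates 4 and 5 of 3 uM alone the 24 h difference was -0.07. Of 2546 genes with more than 1 probe set, 5.70% had their second brightest at least as far from the brightest in log2 change at 100 uM and 48 h as those of *Gc*, and 28.4% at 24 h. Which probe set follows the *Gc* message, and which part of it each one reads, was not tested.

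**Figure D3:**
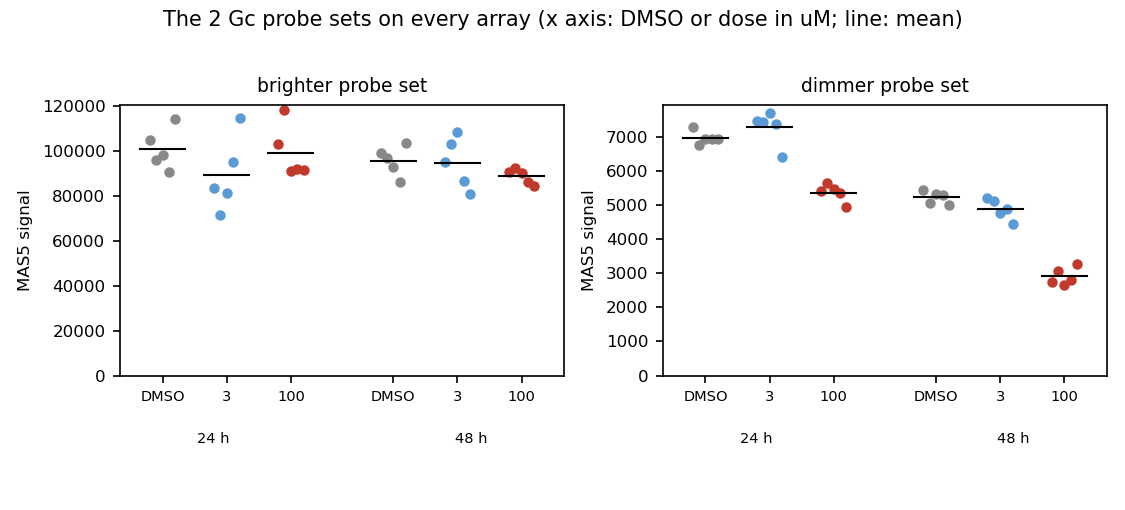
Signal (linear axes from 0) of the brighter and the dimmer *Gc* probe set on each of the 30 arrays by treatment and time; points are wells and lines are group means, n = 5. The dimmer probe set steps down at 100 uM at both times, and its treated wells lie below all DMSO wells of the same time, while the groups of the brighter one overlap.

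The third comparison asks whether 3 uM moved these genes. None of the 10 passed at 24 h, where 4.22% of all genes did (0.0391% without replicates 1, 2 and 3), and none at 48 h, where 0.0391% did. By unadjusted p under 0.05 there was 1 at each time, *Gc* at 24 h (0.0491) and *Serpina6* at 48 h (0.0217). Without replicates 1, 2 and 3 the count at 24 h was 0. The share of all genes at that level was not taken, so nothing more is read from these counts. *Serpina6* at 3 uM and 48 h read 335, 421, 435, 396 and 577, which overlapped with DMSO, a log2 change of -0.34 ± 0.14 (limma adjusted p = 0.953). *Serpina3c* read 18293, 18000, 17896, 18740 and 19970 at 24 h and 3648, 4521, 4725, 5722 and 4638 at 48 h, within the range of DMSO but for 1 well at 48 h. The change of the 3 uM effect between the times was called for none of the 10 genes and for 0.00% of all genes, with or without those wells.

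At 3 uM and 24 h the wells differed more, relative to the group mean, than in any other group for every bright gene but *Serpina3n*. *Alb* read 71521, 57477, 65213, 86278 and 94712, and the first 3 of these are the wells with the high beta-actin ratio. With all 5 wells the log2 changes of the 10 genes ran from -0.21 (*Alb*) to 0.01 (*Serpina3n*). Without replicates 1, 2 and 3 they ran from 0.00 (*Serpina3c*) to 0.13 (*Serpina1*), and none passed. Without replicate 5 instead, 3 genes passed as lower (*Ttr*, *Rbp4* and *Gc*), and with limma's array weights 6 did. Of all 10222 genes, 1650 and 2889 passed in those fits, against 431 in the main fit.

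Wells of a group tended to be high or low in all the bright genes at once. The mean deviation of the 8 bright genes from their group means ran from -0.25 (3 uM at 24 h, replicate 2) to 0.33 (3 uM at 24 h, replicate 5) on the log2 scale. The 50 brightest other genes deviated to -0.23 and 0.35 on the same arrays. *Hpx* lay on the same side of its group mean as those 50 genes on 30 of 30 arrays and *Serpina3n* on 18. Of 281 other genes with mean signals of at least 30000, 35.2% passed at 100 uM and 48 h, 9.96% higher and 25.3% lower, against 51.8% of 3311 genes between 3000 and 30000. The share of this common movement in the calls of *Rbp4*, *Hpx* and *Serpina3n* was not tested.

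**Figure D4:**
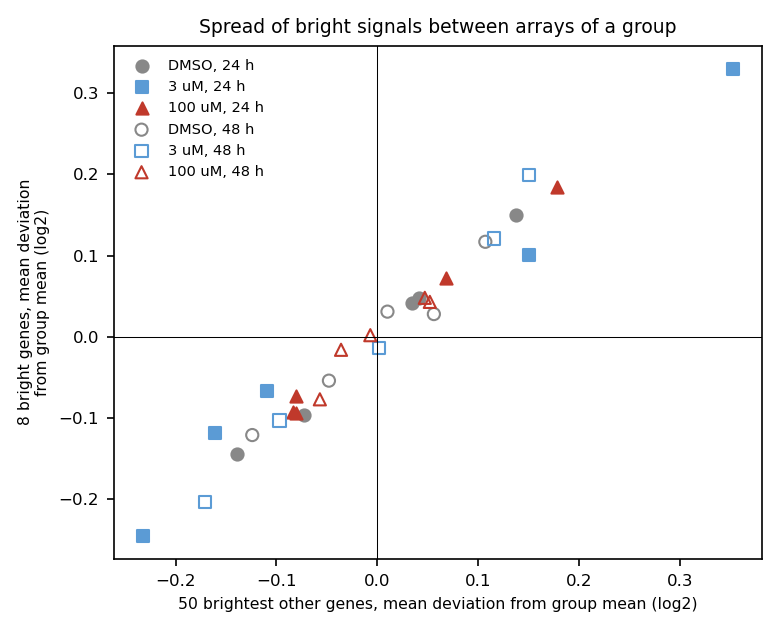
Mean deviation from the group mean (log2) of the 8 bright genes (y axis) against that of the 50 brightest other genes (x axis), 1 point for each of the 30 arrays, with symbols for the 6 groups. The points follow the diagonal, and the 5 arrays of 3 uM at 24 h reach furthest, from -0.25 to 0.33 on the y axis; the 2 axes share each array's scaling and labelling.

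Between the doses, 100 uM against 3 uM at 48 h called the same 5 genes as 100 uM against DMSO, and both comparisons use the same 100 uM wells (28.8% of all genes passed, 16.2% higher and 12.6% lower). The log2 changes were 1.19 for *Serpina3c*, 1.22 for *Serpina6*, -0.28 for *Rbp4*, -0.20 for *Hpx* and -0.25 for *Serpina3n* (limma adjusted p from 2.19e-11 to 0.0299). The median over the 10 genes was -0.12 and over all genes 0.04. At 24 h *Serpina3c* (0.25, adjusted p = 0.0485) and *Serpina6* (0.38, 0.0347) were called higher, where 38.8% of all genes passed, 19.8% as higher. Without replicates 1, 2 and 3 of 3 uM the log2 changes of *Serpina3c* and *Serpina6* were 0.19 and 0.18 with adjusted p of 0.342 and 0.527, from 2 wells of 3 uM. In that fit *Rbp4* (-0.241, limma adjusted p = 0.0445) and *Serpina3n* (-0.195, 0.0395) were called lower instead. The calls of *Serpina3c* and *Serpina6* were lost in 29 and 10 of 46 alternatives. The 29 count the fit without replicate 3 of 100 uM at 48 h 2 times. The *Serpina3c* call was also lost without replicate 1 of DMSO at 48 h (adjusted p = 0.0523), a well of neither group.

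By the root mean square difference of the 6 centred group means, the tested genes most like *Serpina3c* were *Cyp3a2* (0.21), *Cyp2c13* (0.21) and *Serpina3l* (0.37). The same 3 came first for *Serpina6*, at 0.20, 0.26 and 0.53. Without replicates 1, 2 and 3 of 3 uM at 24 h they remained for *Serpina3c*, and for *Serpina6* the third was *Il1rn* (0.51). *Cyp3a2* and *Cyp2c13* encode cytochrome P450 enzymes, and *Serpina3l* is another antichymotrypsin-like serpin. *Cyp3a2* was 6203 ± 428 (SD, n = 5) in DMSO at 24 h, 1615 ± 306 at 48 h and 2276 ± 276 at 100 uM and 48 h. *Serpina3l* was 17490 ± 1370, 7687 ± 659 and 11710 ± 625. *Serpina3* genes are close relatives, and how far their probe sets read each other's messages was not tested.

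**Figure D5:**
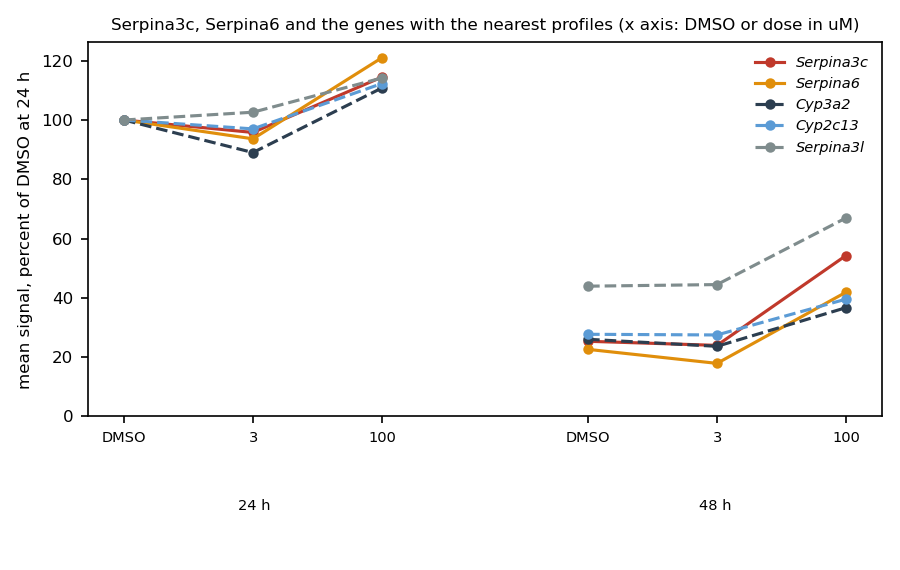
Group means of *Serpina3c*, *Serpina6* and the 3 genes with the nearest profiles, as percent of the DMSO mean at 24 h (y axis, linear from 0) by treatment and time, n = 5 arrays for each point and no error bars drawn. All 5 lines drop between the times and end higher at 100 uM than in DMSO at 48 h, with *Serpina3l* dropping least.

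None of the other listed plasma serpins rose. Of 10 tested of 13 listed, 6 fell and none rose at 100 uM and 24 h, and 9 fell and none rose at 48 h, with medians of -0.25 and -0.45. Of all genes 15.8% and 14.5% fell in these comparisons, with medians of 0.04 and 0.05. *Serpinf2*, which encodes the plasmin inhibitor alpha-2-antiplasmin, went from 4396 ± 430 (SD, n = 5) in DMSO to 1924 ± 194 at 48 h, a log2 change of -1.19 ± 0.09 (limma adjusted p = 9.51e-13). *Serping1*, the C1 inhibitor of complement, changed by -0.49 ± 0.05 (adjusted p = 2.16e-10). *Serpina11* fell by 0.73 on the log2 scale and *Serpina3m*, of the same group as *Serpina3c*, by 0.48. From 24 to 48 h in DMSO, 4 of the 10 fell, where 1.91% of all genes did, among them *Serpina3m* with a change of -0.48 (adjusted p = 9.93e-06).

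Other carriers and glycoproteins of plasma that passed the test at 100 uM were also lower. Of 18 tested of 20 listed, 10 fell and none rose at 24 h and 13 fell and none rose at 48 h (medians -0.34 and -0.41; 15.8% and 14.5% of all genes fell). *Hrg*, the histidine-rich glycoprotein that binds heparin and metal ions, went from 18100 ± 1270 (SD, n = 5) in DMSO to 6354 ± 464 at 48 h, a log2 change of -1.51 ± 0.08 (limma adjusted p = 7.37e-17). *Azgp1*, a lipid-binding glycoprotein, changed by -1.28 ± 0.10 and *Amy1*, an amylase, by -1.02 ± 0.08 (adjusted p = 4.94e-12 and 7.00e-13). *Pzp*, a broad protease inhibitor, fell by 50.1% (adjusted p = 9.51e-13). At 3 uM *Pzp* alone of the list was called, higher by 0.28 at 24 h (adjusted p = 0.0319), and without replicates 1, 2 and 3 its change was 0.02 (0.957).

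Of 14 tested liver transcription factors of 17 listed, 7 fell at each time at 100 uM, where 15.8% of all genes fell at 24 h and 14.5% at 48 h, and *Onecut1* rose at 48 h by 0.63 ± 0.16 (limma adjusted p = 0.00300). *Foxa1*, a pioneer factor of liver genes, changed by -1.14 ± 0.18 at 48 h, from 740 ± 139 to 341 ± 103 (SD, n = 5). *Cebpa*, a C/EBP factor that maintains the hepatocyte state, changed by -0.58 ± 0.09 at 48 h and by -0.11 ± 0.09 at 24 h (adjusted p = 4.97e-06 and 0.379). *Nr1h4*, the bile acid receptor, changed by -0.75 ± 0.12 at 24 h and -0.58 ± 0.12 at 48 h. *Hnf4a* changed by -0.37 at 24 h (adjusted p = 0.000424) and by -0.03 at 48 h (0.801).

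The list of receptors and recycling proteins of the plasma proteins, which also holds enzymes such as *Cyp27a1*, was mixed. Of 10 tested of 15 listed, 6 fell and 1 rose at 100 uM and 24 h, and 5 fell and 2 rose at 48 h (medians -0.25 and -0.18), against 15.8% lower and 19.8% higher of all genes at 24 h and 14.5% and 18.9% at 48 h. *Asgr2* and *Asgr1*, the subunits of the receptor that clears desialylated glycoproteins, changed by -1.03 ± 0.07 and -0.58 ± 0.07 (limma adjusted p = 8.36e-14 and 9.10e-09). *Lrp1*, an endocytic receptor for protease and hemopexin complexes, changed by -0.52 ± 0.14, and *Cyp27a1*, a sterol hydroxylase, by -0.50 ± 0.08. Of the 12 folding and export genes, 6 fell and none rose at 24 h and 9 fell and none rose at 48 h (medians -0.19 and -0.24), against the same shares of all genes. *P4hb*, a disulfide isomerase, changed by -0.46 ± 0.05 at 48 h and *Sec24d*, a coat protein of vesicles that leave the endoplasmic reticulum, by -0.53 ± 0.06 (adjusted p = 2.03e-09 and 8.70e-09).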

How the data were processed

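Biotin-labelled RNA of 30 wells was read on a rat expression array. The values were deposited as intensity on a linear scale, 1 signal for each probe set, and the submitters' processing notes name MAS5; its version is not given in the sources used here. In the deposited values the trimmed mean was 1500.54 to 1500.66 on every array, so the arrays had been scaled to each other. Genes came from the platform annotation, updated through the gene identifier (20826 probe sets with 1 symbol, 436 with several, 9780 with none, 57 controls left out).

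Signals were log2 transformed with no pseudocount. Probe sets above the array median on at least 5 arrays were tested, and the brightest stood for its gene. Group means (6) were fitted to all 30 arrays with limma 3.58.1 in R 4.3.3 (24 residual degrees of freedom, eBayes with a trend, two-sided, Benjamini-Hochberg within each of 9 comparisons), as tested on simulated data. All 10 genes were to be named, and of the other lists up to 4 called genes by adjusted p at 100 uM and 48 h. *Hnf4a* was named outside this rule, after its values were seen. The genes and lists were chosen with earlier results of these data known. The number of arrays limits the precision.

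By the array numbers in the titles, each successive 6 arrays include 1 of each group. Wells of such a run did not deviate together, so they were not paired. Plots were made in Python 3.11.15 with matplotlib 3.10.9.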

Additional observations from a re-analysis of the deposited data

Results flagged for a closer look

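In *Ahsg*, replicate 2 of 100 uM at 24 h was far above the other 4 wells of its group. It read 68088, against 61107 in the nearest well, and its gap was 0.833 of the whole range of the group, above the limit of 0.71 for 5 samples. Chance alone passes this limit in about 5% of groups, and 60 groups were looked at. The 8 bright genes together deviated by 0.19 on the log2 scale on the same array, and the 50 brightest other genes by 0.18.

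The effect of 100 uM on *Serpina3c* differed between the times. It was 1.11 at 48 h and 0.19 at 24 h on the log2 scale, and the difference of 0.925 ± 0.142 (SE) passed limma's test of the difference (adjusted p = 0.000167).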

How the results depend on the processing

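The calls of *Serpina3c* and *Serpina6* at 100 uM and 48 h, their fall with time in DMSO and the *Serpina3c* difference between times held in all 46 alternatives. The 46 count the fit without replicate 3 of 100 uM at 48 h 2 times. Counts of called genes that moved to or from 0, or by a factor above 1.5, are listed below. Smaller moves are not listed. Among these, *Gc* was also called lower with the mean of probe sets or the second brightest probe set. It was so from 24 to 48 h in DMSO (log2 -0.245 and -0.417). The same held for 100 uM against DMSO at 48 h (-0.478 and -0.85). *Rbp4*, *Hpx* and *Serpina3n* lost that call in some alternatives, as given with each gene. At 100 uM against DMSO and 24 h, 0 became 2 with quantile normalization and 1 with the mean of probe sets, the second brightest probe set, or only the arrays compared; leaving out 1 array gave 0. At 48 h, 5 became 3 with median centring, and 2 at an adjusted p under 0.01 or with a 1.5-fold limit; leaving out 1 array gave 2 to 5 (2 without DMSO replicate 1 or 5, 3 without DMSO replicate 2 or 100 uM replicate 4). At 3 uM and 24 h, 0 became 6 with array weights and 0 to 3 without 1 array. Of all 10222 genes, 2889 passed there with array weights and 1650 without 3 uM replicate 5, against 431 in the main fit. For 100 uM against 3 uM at 24 h, 2 became 4 with quantile normalization, 7 with array weights, 1 with the mean of probe sets, without a trend or without replicate 3 of 100 uM at 48 h, and 0 with median centring, without a filter, with the beta-actin ratio, at 0.01 or with 1.5-fold; leaving out 1 array gave 0 to 6. In that comparison 3970 of all 10222 genes passed in the main fit. With quantile normalization 4064 did, with array weights 4814 and without 3 uM replicate 5 4198. Without 3 uM replicates 1, 2 and 3 the genes called were instead *Rbp4* and *Serpina3n*, both lower. At 48 h, 5 became 3 at 0.01, 2 with 1.5-fold and 3 to 5 without 1 array (3 without 3 uM replicate 3). For the change of the 100 uM effect, 1 became 2 with the second brightest probe set or the beta-actin ratio, and stayed 1 without 1 array. For the change of the 3 uM effect, 0 became 2 with array weights, where 1616 of all genes passed. Leaving out 1 array gave 2 for time in DMSO, and 0 for 3 uM at 48 h and for the change of the 3 uM effect. For 100 uM against 3 uM at 24 h, the sign turned and the turned value passed the test in *Rbp4*, *Gc* and *Hpx*. *Rbp4* went from 0.02 to -0.127 with quantile normalization and -0.241 without 3 uM replicates 1, 2 and 3. *Gc* went from 0.16 to -0.439 with the second probe set, and *Hpx* from 0.03 to -0.116 with quantile normalization. Other signs turned without passing. In that comparison *Alb* reached -0.027, *Ttr* -0.146, *Ahsg* -0.083 and *Serpina1* -0.128, all from values above 0. At 3 uM against DMSO and 24 h, signs below 0 also turned, among them *Alb* (up to 0.082) and *Serpina1* (up to 0.127). The causes were not tested.

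With the runs of 6 array numbers as a replicate block, 100 uM against 3 uM at 24 h called 1 gene in place of 2, and the block changed no other count. Pairing by run is not given by the labels: the median correlation of deviations was -0.0011 within runs and -0.00101 between them, and 10 of 30 arrays were closest to their own run.

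At 48 h, with its signals nearer the array median, *Serpina6* had within-group SDs of 0.25 to 0.30 on the log2 scale, against 0.15 to 0.22 at 24 h.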
